A study of Bos taurus with 8 samples.

Results

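The 8 genes described here are grouped as oncofetal, a term for genes active before birth, quiet in most adult tissues and often active again in tumours. The term does not hold equally for all 8. They are the RNA-binding protein genes IGF2BP1, IGF2BP2, IGF2BP3 and LIN28B, the chromatin protein genes HMGA1 and HMGA2, the transcription factor gene PLAG1 and the telomerase gene TERT. They were taken by symbol, and all 8 were among the 33132 genes of the count table. Each was measured by RNA sequencing in tissue of the rumen, the stomach compartment where feed is fermented, with 1 library per animal. The animals were 4 adult steers, which are castrated males, and 4 newborn male calves, all crosses of the angus breed. Age and castration cannot be told apart here, and exact ages, diet and batches are not stated in the labels. The series asks which genes accompany growth of the rumen after birth, and its single comparison is adult steer against newborn calf.

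The products of these genes act at several steps that are best known from human and mouse cells. The IGF2BP proteins bind messenger RNAs, among them that of the growth factor IGF2, and protect them from decay. LIN28B blocks the maturation of the let-7 microRNAs, which repress the IGF2BP genes, HMGA2 and LIN28B itself. PLAG1 is a zinc finger factor that can switch on IGF2, and HMGA2 can in turn switch on PLAG1. HMGA proteins bend AT-rich DNA. TERT is the catalytic part of telomerase, the enzyme that extends chromosome ends, and is kept in germ, stem and some rapidly renewing cells.

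Libraries held 42322022 to 54449684 counts in steers and 45779990 to 49628428 in calves. The labelled tissue was checked against marker lists, in CPM, the field's measure of counts relative to the scaled library size. Markers of basal keratinocytes, the dividing layer of squamous epithelium, summed to 8520 to 16300 CPM in steers and 11800 to 17200 CPM in calves, with 2 of 10 higher and 1 lower. Smooth muscle markers summed to 11500 to 111000 CPM in steers and 6460 to 18700 CPM in calves, with 5 of 10 higher and 1 lower. Of 16326 genes tested, 2752 (16.9%) passed an adjusted p under 0.05, of which 1257 were higher and 1495 lower in steers. With scaling by library size alone the split was 835 higher and 1555 lower, and the median log2 change of all genes was -0.07 instead of 0.04. No label names separate litters or herds. The p-values set the group difference against the spread between animals within the groups, and they cover these 8 animals only.

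Of the 8 genes, 5 fell in steers: IGF2BP1, IGF2BP2, IGF2BP3, PLAG1 and TERT. HMGA1 and HMGA2 did not pass the test, and LIN28B was too low to be tested. No member rose, and no member was higher at an unadjusted p under 0.05. Of the 7 members tested 5 were called lower and 0 higher, where 9.16% of all tested genes were called lower and 7.70% higher. Calls of at least 8-fold lower made up 2.58% of tested genes and, among the members, were IGF2BP1, IGF2BP3 and TERT. In the same 5 genes every steer lay below every calf, a pattern found in 12.8% of tested genes. The median log2 change of the 7 was -2.76, against 0.04 over all tested genes. The 8 genes were chosen with earlier results of these data known, so these counts and shares describe them and test nothing. The filter on low values required 0.212 CPM, here taken on library totals before scaling, in at least 4 libraries, which IGF2BP1 reached in 0 steers and 4 calves, and IGF2BP3 and HMGA2 each in 3 steers and 4 calves. IGF2BP1 thus entered the test through the calves alone and had to differ. Leaving it out, the members called lower were IGF2BP2, IGF2BP3, PLAG1 and TERT, and those at least 8-fold lower were IGF2BP3 and TERT. In whole tissue, fewer cells of a type and less RNA per cell cannot be told apart.

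**Figure D1:**
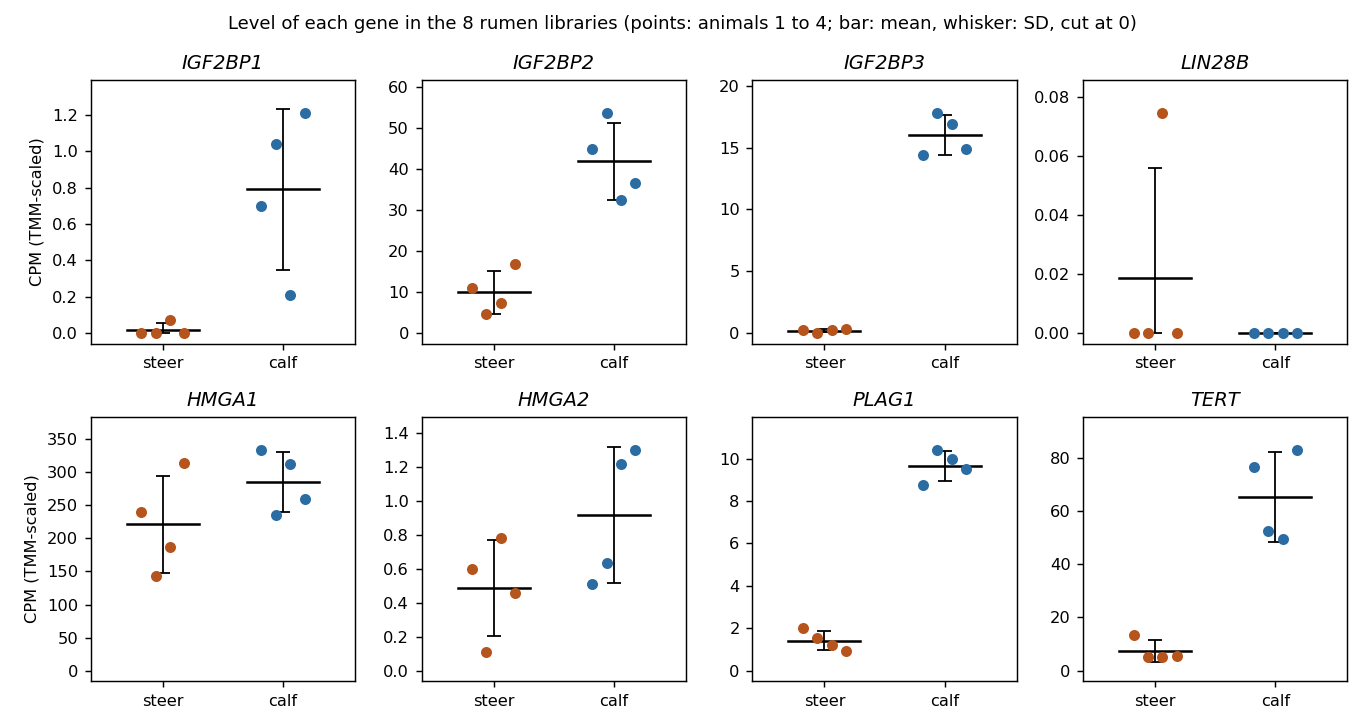
Level of each of the 8 genes in CPM (vertical axes, each on its own scale) in 4 steer libraries (orange, left) and 4 calf libraries (blue, right). Points are animals, bars are means and whiskers are SD; the steer and calf points of IGF2BP1, IGF2BP2, IGF2BP3, PLAG1 and TERT are apart, and those of HMGA1 and HMGA2 overlap.

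IGF2BP3, also known as IMP3, fell to under 1 CPM in every steer. It spans bases 31943616 to 32088158 of chromosome 4. All positions are those of the deposited counts, and the build behind them was not given in the sources used. Steers 1 to 4 had 11, 2, 15 and 18 counts of it, against 619, 1065, 804 and 712 counts in calves 1 to 4. These were 0.275, 0.0557, 0.279 and 0.316 CPM in the steers and 14.4, 17.8, 16.9 and 14.9 CPM in the calves. The calves were close to each other, with a coefficient of variation of 10.1%, while steer 2 stood below the other steers. The fitted log2 change was -6.06 ± 0.44 (SE, adjusted p = 9.11e-05), which is 66.8-fold lower in steers. Its p ranked 16 among the 16326 tested genes, counted from the smallest.

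IGF2BP2 (chromosome 1, 81402102 to 81573565) was the most abundant of the 3 paralogs in every library and the one that kept most of its level. It is also the paralog that adult tissues usually retain. Steers 1 to 4 held 11, 4.84, 7.39 and 16.9 CPM, and calves 1 to 4 held 45.0, 53.8, 32.5 and 36.6 CPM. The highest steer, steer 4, was still below the lowest calf, calf 3. IGF2BP2 fell to 10.03 ± 5.22 CPM in steers, against 41.98 ± 9.44 CPM in calves (SD, n = 4 each), a log2 change of -2.06 ± 0.37 (adjusted p = 0.00542), or 4.18-fold.

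IGF2BP1 (chromosome 19, 37503490 to 37543759), the founding member of the family, was near the limit of detection in adults. It had 0 counts in steers 1, 2 and 4 and 4 counts in steer 3, against 30, 62, 10 and 58 counts in calves 1 to 4. In CPM these were 0, 0, 0.0745 and 0 in the steers and 0.699, 1.04, 0.210 and 1.21 in the calves. The calves spread more than for its paralogs, with calf 3 the lowest. The fitted log2 change was -5.09 ± 1.06 (adjusted p = 0.0106), with a 95% interval of -7.46 to -2.72. As IGF2BP1 passed the filter on low values through the calves alone, its adjusted p is no independent support for a difference. With counts halved to read pairs, or with a filter of 1 CPM in 4 libraries, IGF2BP1 was too low to be tested. Because both mates of a read pair add to a count, the ratio was also taken over pairs, 2 in steers and 80 in calves. This gave a ratio of calf to steer of 37.7 (exact 95% interval for counting error only, 10.1 to 317). Without steer 3 no steer count was left and the fitted value moved to -8.23, a size that is not measured, while without calf 2 and steer 4 together it was -4.49.

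The 3 paralogs differ in length, so their levels were set side by side only as CPM per kilobase (kb) of counted span. The counted span is the whole transcribed region with introns, and its length is 40.27 kb for IGF2BP1, 171.5 kb for IGF2BP2 and 144.5 kb for IGF2BP3. On this scale the sum over the family was 0.0286 to 0.101 CPM per kb in steers and 0.312 to 0.463 CPM per kb in calves, with no overlap. IGF2BP2 made up 97.1%, 98.7%, 91.9% and 97.8% of that sum in steers 1 to 4, against 69.1%, 67.8%, 60.8% and 61.6% in calves 1 to 4. The share of IGF2BP3 was 1.35% to 4.12% in steers and 26.3% to 37.5% in calves. The per-length ratio of IGF2BP2 to IGF2BP3 was thus 22.3 to 73.3 in steers and 1.62 to 2.63 in calves. These shares do not depend on the scaling between libraries, and no test was made on them because the genes were chosen with earlier results known.

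**Figure D2:**
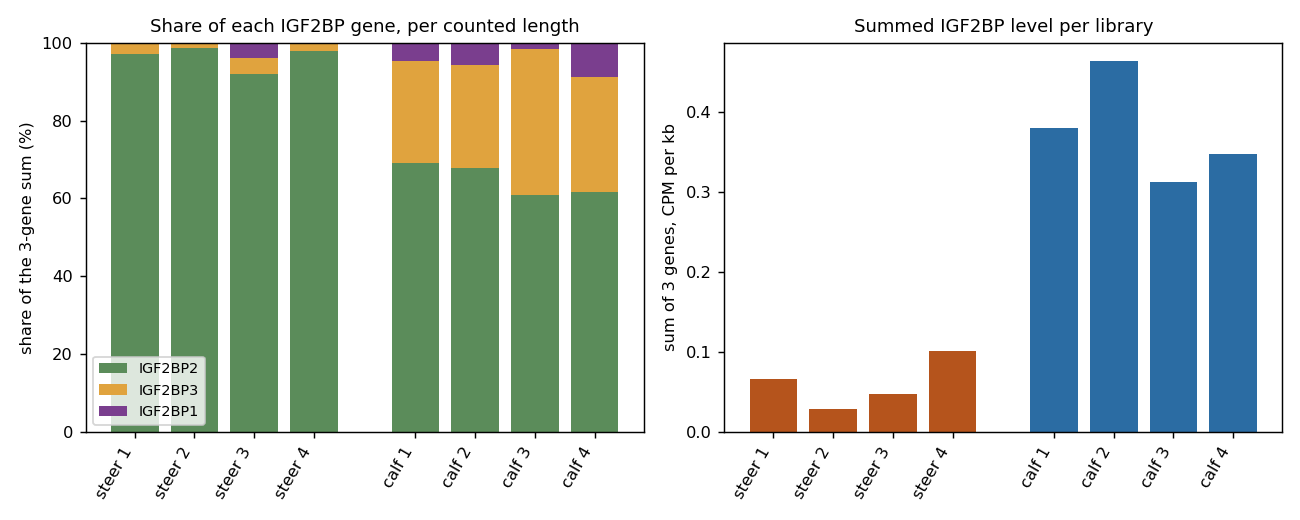
Left, the share of IGF2BP2, IGF2BP3 and IGF2BP1 in their summed CPM per kb of counted span (percent) in each library; right, that sum in CPM per kb in steers (orange) and calves (blue). IGF2BP2 makes up at least 91.9% in every steer and at most 69.1% in every calf, and the sum is at most 0.101 in steers and at least 0.312 in calves.

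LIN28B (chromosome 9, 44947999 to 45069808) was close to absent from these libraries. It had 4 counts in steer 3, which is 0.0745 CPM, and 0 counts in the other steers and in all 4 calves. A count of 0 allows up to 3 read pairs, which are 6 counts, or 0.1 to 0.140 CPM in the calf libraries. With a single library above 0, the exact permutation test gives p = 1.00 whatever the labels, so it carries no information here. A difference in LIN28B was not detectable at this depth. Its paralog LIN28A, which acts on let-7 in the same way, had 0 counts in all 8 libraries.

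HMGA1 (chromosome 23, 8313803 to 8322723) was by far the most abundant of the 8 genes, and its groups overlapped. Steers 1 to 4 had 240, 143, 187 and 314 CPM and calves 1 to 4 had 333, 235, 312 and 259 CPM. Steer 4 exceeded 3 of the calves, and steer 2 was the lowest of the 8 libraries. The log2 change was -0.36 ± 0.27 with a 95% interval of -0.97 to 0.24 (adjusted p = 0.397). With mean smooth muscle marker level as a covariate the sign turned, at 0.04. In the human genome HMGA1 has processed copies; if cattle have such copies, reads shared with them could be lost from its count.

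HMGA2 (chromosome 5, 47819475 to 47966336), the relative of HMGA1 that is known as the fetal form, was scarce in both groups. Steers 1 to 4 had 24, 4, 42 and 26 counts, and calves 1 to 4 had 22, 38, 58 and 62 counts. These were 0.600, 0.111, 0.782 and 0.456 CPM in steers and 0.512, 0.636, 1.22 and 1.30 CPM in calves. Calves 3 and 4 lay above all steers, while calves 1 and 2 lay within the range of the steers. The log2 change was -0.90 ± 0.60 (adjusted p = 0.343), and its 95% interval of -2.24 to 0.44 holds both a loss of over 4-fold and no change. Per kb of counted span HMGA1 exceeded HMGA2 3940 to 21100 times in steers and 3290 to 10700 times in calves. These spans hold introns and are 8.921 kb for HMGA1 and 146.9 kb for HMGA2, which enlarges the ratio. In CPM, the means of HMGA1 and HMGA2 were 221.2 and 0.4874 in steers and 284.8 and 0.9164 in calves.

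PLAG1 (chromosome 14, 23323709 to 23375661) had the most even levels among the calves. Steers 1 to 4 had 2.00, 1.56, 1.23 and 0.912 CPM, against 8.76, 10.4, 9.97 and 9.50 CPM in calves 1 to 4. The coefficient of variation was 32.7% in steers and 7.19% in calves, and the groups were far apart. PLAG1 fell to 1.43 ± 0.47 CPM in steers, against 9.65 ± 0.69 CPM in calves (SD, n = 4 each), a log2 change of -2.76 ± 0.31 (adjusted p = 0.000485), or 6.78-fold. The next gene, CHCHD7, a mitochondrial protein gene that begins 488 bases away, was at 33.9 CPM in steers and 44.7 CPM in calves and did not pass (-0.40 ± 0.24, adjusted p = 0.290).

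TERT (chromosome 20, 71145303 to 71162377) was well above detection in every library. Steers 1 to 4 had 546, 186, 278 and 324 counts, against 3278, 3139, 2348 and 3958 counts in calves 1 to 4. These were 13.6, 5.18, 5.18 and 5.68 CPM in steers and 76.4, 52.5, 49.4 and 82.8 CPM in calves. Steer 1 stood above the other steers but below every calf. TERT fell by 3.14 ± 0.38 on the log2 scale (adjusted p = 0.000809), or 8.80-fold, and by 3.60 without steer 1. Per kb of counted span its mean exceeded that of 50.3% of all tested genes in steers and of 81.7% in calves.

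None of the span of TERT is shared with another gene of the table. CLPTM1L, whose span ends 15402 bases before TERT, was at 146 CPM in steers and 184 CPM in calves and did not pass (-0.33 ± 0.23, adjusted p = 0.363). SLC6A3, a transporter gene 49250 bases before TERT, had 0 counts in steers and 46 in calves and was too low to be tested. On the other side SLC6A18, also a transporter gene, had 0 counts in all libraries. The nearest neighbour of IGF2BP3, the mitochondrial ribosome assembly gene MALSU1 at 810 bases, did not pass either (0.43 ± 0.22, adjusted p = 0.220). SENP2, a protease gene 12713 bases from IGF2BP2, was at 36.5 CPM in steers and 37.8 CPM in calves (adjusted p = 0.897). Of the members, HMGA2 alone shared any span, 0.0817%, with a microRNA gene.

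**Figure D3:**
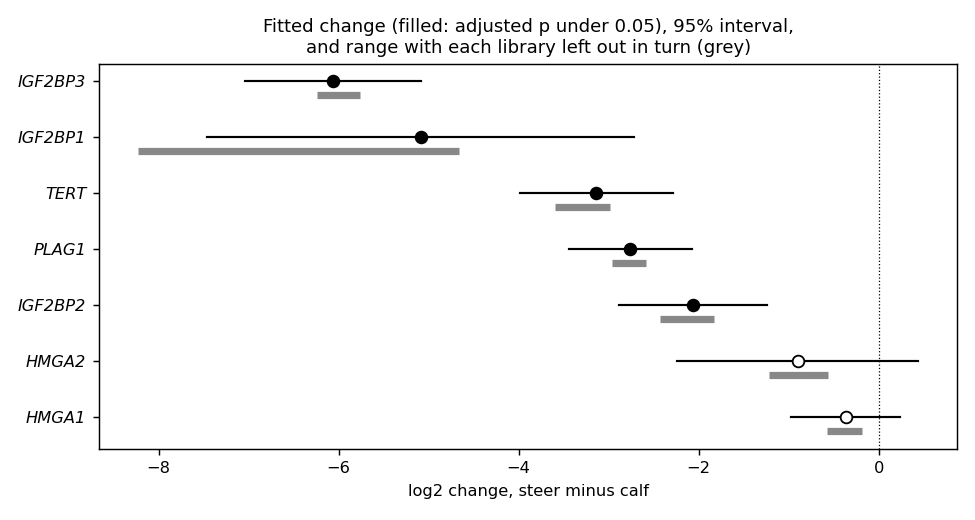
Fitted log2 change, steer minus calf (horizontal axis), of the 7 tested genes, as points with 95% intervals (black lines); filled points passed an adjusted p under 0.05. Grey bars give the range of the change with each library left out in turn, widest for IGF2BP1 at -8.23 to -4.66.

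Ordered by level per kb of counted span, the steer means were 24.8 CPM per kb for HMGA1, 0.435 for TERT, 0.0585 for IGF2BP2, 0.0274 for PLAG1, 0.00332 for HMGA2, 0.00160 for IGF2BP3, 0.000463 for IGF2BP1 and 0.000153 for LIN28B. The calf means on the same scale were 31.9 for HMGA1, 3.82 for TERT, 0.245 for IGF2BP2, 0.186 for PLAG1, 0.111 for IGF2BP3, 0.0196 for IGF2BP1, 0.00624 for HMGA2 and 0 for LIN28B. HMGA2 stood above IGF2BP3 and IGF2BP1 in steers and below both in calves. Several neighbours in this order had overlapping ranges. IGF2BP2 and PLAG1 overlapped in steers (0.0283 to 0.0985 and 0.0175 to 0.0385) and in calves (0.190 to 0.314 and 0.169 to 0.200). HMGA2 and IGF2BP3 overlapped in steers, and IGF2BP1 and HMGA2 overlapped in calves. Intron reads count too, so a gene with long introns can appear lower per kb than its messenger RNA is.

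**Figure D4:**
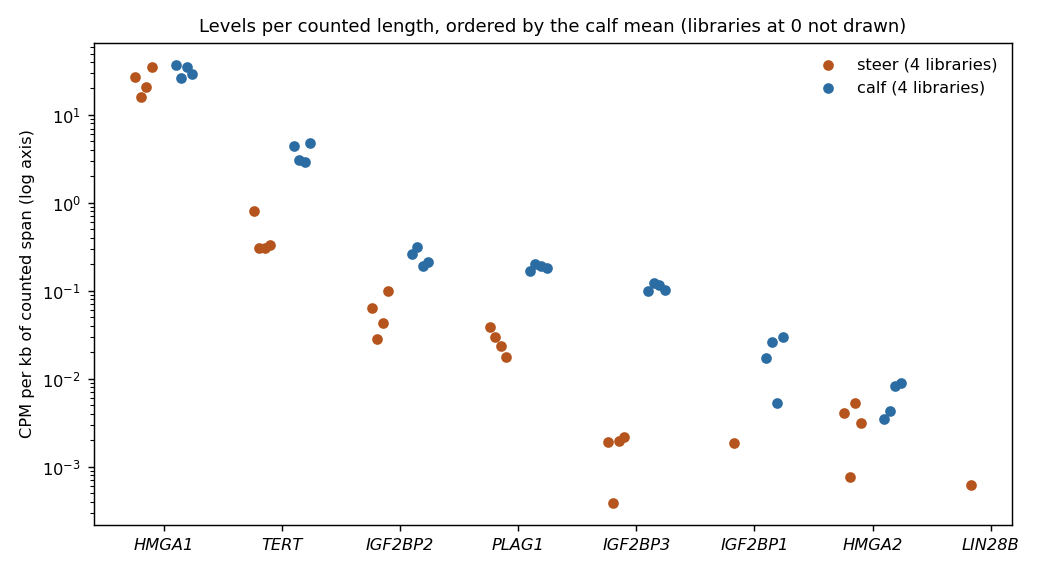
CPM per kb of counted span on a logarithmic axis for the 8 genes in steers (orange) and calves (blue), ordered by the calf mean. Libraries at 0 are not drawn, so IGF2BP1 shows 1 steer and LIN28B shows 1 steer and no calf.

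The genes around the members were taken from 5 lists, described by counts. All lists were chosen with earlier results of these data known, so the counts describe the lists and test nothing. In the growth genes tied to PLAG1 and HMGA2, 9 of 18 tested fell and 0 rose. Of all tested genes, 9.16% were called lower and 7.70% higher. Of the 18 growth genes, 1 was higher at an unadjusted p under 0.05 and 0 were higher by DESeq2 or limma-voom. Their median log2 change was -1.82. DLK1, a fetal membrane protein, had 0.05 to 0.373 CPM in steers and 19.4 to 125 CPM in calves (-7.82 ± 0.81, adjusted p = 0.000384). Calf 2 alone held the 125 CPM, and without it the change was -6.91. The imprinted non-coding RNA H19 had 4.57 to 17.9 CPM in steers and 476 to 1950 CPM in calves (-6.86 ± 0.69, adjusted p = 0.000332). MEG3, another such RNA, fell by 4.94 ± 0.46, and CRABP2, which carries retinoic acid, fell by 4.06 ± 0.48. IGF2, named here after its values were seen because the IGF2BP proteins and PLAG1 act on it, fell by 3.70 ± 0.37. The PLAG1 relatives PLAGL1 and PLAGL2, also named afterwards, had changes of -0.67 ± 0.43 (adjusted p = 0.326) and -0.18 ± 0.23 (adjusted p = 0.647).

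In the list of LIN28, let-7 processing factors and well-known let-7 targets, 4 of 36 tested genes rose and 5 fell, with a median log2 change of -0.19. Those that fell included THRSP, a regulator of lipid synthesis (-3.16 ± 0.63, adjusted p = 0.00876), which was at 0.682 ± 0.144 CPM in steers and 6.13 ± 6.02 CPM in calves. Calf 4 held 15.1 CPM of THRSP, and without it the change was -2.19. With mean smooth muscle marker level as a covariate THRSP lost its call (adjusted p = 0.0599). The transcription factor MYCL had 2.40 to 4.06 CPM in steers and 12.2 to 29.4 CPM in calves (-2.76 ± 0.32, adjusted p = 0.000693), and LRIG3, a membrane protein, fell by 1.92 ± 0.35. ZCCHC11 (TUT4), the enzyme that tags let-7 precursors for LIN28, was at 6.95 ± 2.16 CPM in steers and 14.4 ± 4.7 CPM in calves with overlapping groups (-1.05 ± 0.31, adjusted p = 0.0461). Its call ended without steer 1, steer 2, steer 4, calf 2, calf 3 or calf 4, with adjusted p = 0.0572 to 0.112.

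The let-7 targets that rose were of other kinds. The cell cycle gene CCND2 had 14.3 to 36.7 CPM in steers and 5.45 to 13.5 CPM in calves (1.45 ± 0.37, adjusted p = 0.0248). That call ended without steer 1, calf 1, calf 2 or calf 4 (adjusted p = 0.0565 to 0.0733). The ubiquitin-conjugating enzyme gene CDC34 rose by 1.18 ± 0.25 and the creatine synthesis gene GATM by 0.94 ± 0.21. GATM shares 28% of its span with another gene and lost its call without calf 1 (adjusted p = 0.0528). CCND1 could not be measured, because its whole span lies in another gene and shared reads were dropped.

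Partners of the IGF2BP proteins and the enzymes and readers of the RNA mark m6A, which guides IGF2BP binding, stayed outside the test's threshold. None of 26 was called by edgeR, where 16.9% of all tested genes were called. At an unadjusted p under 0.05, 4 were higher and 0 lower. DESeq2 called 2 and limma-voom 1, all higher. Their log2 changes ran from -0.36 to 0.71 with a median of 0.06. The most abundant, YBX1, an RNA-binding protein of the same particles, had 1130 to 1330 CPM in steers and 753 to 875 CPM in calves (0.65 ± 0.21, adjusted p = 0.0635). The groups of YBX1 did not overlap, and it passed with DESeq2 (8.26e-05) and limma-voom (0.0429).

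Among the telomerase partners and telomere proteins, 1 of 24 tested (4.17%) rose and 0 fell, where 16.9% of all tested genes were called. At an unadjusted p under 0.05, 1 was lower, and 0 were lower by DESeq2 or limma-voom. With scaling by library size alone the 1 call was a lower one. The log2 changes ran from -0.79 to 0.70 with a median of -0.11. PARN, a nuclease that matures the telomerase RNA, was the 1 called gene, at 34.0 ± 6.9 CPM in steers and 21.5 ± 2.1 CPM in calves (0.66 ± 0.20, adjusted p = 0.0467). Its call ended with any library but steer 2 left out (adjusted p = 0.0535 to 0.114). The telomerase RNA gene TERC, named after its values were seen, was at 1.10 ± 0.59 CPM in steers and 1.90 ± 1.18 CPM in calves (-0.79 ± 0.57, adjusted p = 0.384). DKC1, which binds that RNA and was likewise named afterwards, was at 86.2 ± 14.5 CPM in steers and 113 ± 13 CPM in calves (-0.39 ± 0.19, adjusted p = 0.186). TERF2 lies wholly inside another counted span and could not be measured.

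In the chromatin list, 3 of 19 tested genes fell and 0 rose, with 0 higher at an unadjusted p under 0.05. That is 15.8% called, near the 16.9% of all tested genes, of which 9.16% were called lower. DESeq2 and limma-voom each called 5 of the list, all lower. The DNA methyltransferase DNMT3A had 25.2 to 50.9 CPM in steers and 66.3 to 99.8 CPM in calves (-1.25 ± 0.26, adjusted p = 0.0114). HMGN3, a nucleosome-binding relative of the HMG proteins, fell by 0.83 ± 0.19 and lost its call without calf 1 (adjusted p = 0.0586) or calf 4 (adjusted p = 0.0558). CBX5, a heterochromatin protein, fell by 0.83 ± 0.18 and lost its call with the smooth muscle covariate (-0.57, adjusted p = 0.0827).

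**Figure D5:**
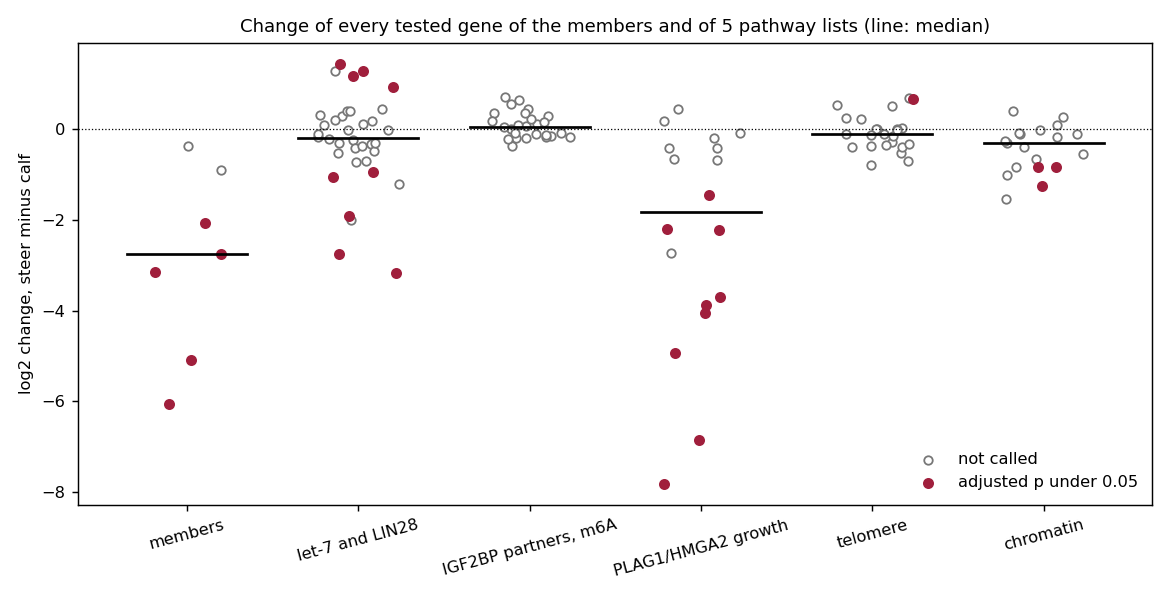
Log2 change, steer minus calf (vertical axis), of every tested gene among the 8 members and in 5 lists; red points passed an adjusted p under 0.05, open points did not, and lines are medians. The medians are -2.76 for the members, -0.19 for let-7 and LIN28, 0.06 for IGF2BP partners and m6A, -1.82 for the PLAG1 and HMGA2 growth genes, -0.11 for telomere genes and -0.29 for chromatin genes.

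The genes closest to each member in profile were found by the root mean square (RMS) difference of log2 CPM over the 8 libraries, after each gene was centred on its own mean. For IGF2BP3 they were KRT7, a keratin of simple epithelia, SBSN, a protein of differentiated squamous cells, and KLHDC7A, at RMS differences of 0.52, 0.53 and 0.53. For IGF2BP2 they were PDIA5, of the protein disulfide isomerase family (0.17), the growth factor gene FGF10 (0.25) and the receptor gene TNFRSF11A (0.27). FGF10 had 0.600, 0.278, 0.522 and 0.877 CPM in steers 1 to 4 and 2.75, 4.18, 1.47 and 1.84 CPM in calves 1 to 4. Steer 4 and calf 2 were the highest of their groups, as they were for IGF2BP2. Because FGF10 was selected for likeness over these same libraries, this shared order is no separate observation. FGF10 lost its call with the smooth muscle covariate (-1.96, adjusted p = 0.0573). For PLAG1 they were AZIN2, a regulator of polyamine synthesis (0.19), the large scaffold gene AHNAK2 (0.26) and MTHFD1L, a mitochondrial folate enzyme (0.27). For TERT they were GGT6 (0.33), ADAM11 (0.37) and the glutathione transferase GSTT2 (0.38).

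For IGF2BP1 the closest were the RNA-binding protein gene CELF3 (0.46), the homeobox gene HOXD9 (0.48) and PNMA2 (0.49). The log2 values hold a small added count, so every library at 0 takes the same floor value. IGF2BP1 and CELF3 were at this floor in steers 1, 2 and 4, and PNMA2 in steers 2 and 4. Their likeness among steers rests in part on that floor. Steer 3, which held every steer count of IGF2BP1, also held the only CELF3 reads among steers (0.149 CPM) and the highest HOXD9 level among steers (1.30 CPM). The log2 changes were -4.57 for CELF3, -3.47 for HOXD9 and -4.71 for PNMA2, and without steer 3 they were -8.60, -4.15 and -5.63. That of KLHDC7A was -8.12, and -10.40 without steer 4. Without those libraries CELF3 and KLHDC7A had no steer count left, so these sizes are not measured. CELF3 lost its call without calf 2 and steer 4 together (-3.76, adjusted p = 0.0517), where PNMA2 was at -3.84. In all 15 of these genes, which were selected for likeness, the groups did not overlap.

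Markers of other cells moved between the groups as well, where 9.16% of all tested genes were called lower and 7.70% higher. Markers of the upper squamous layers summed to 842 to 2530 CPM in steers and 37800 to 90700 CPM in calves, and 6 of 7 tested fell, while IVL and DSG1 were at 0 because their spans are wholly shared. Markers of enteric neurons and glia summed to 20 to 31.2 CPM in steers and 47.3 to 73.0 CPM in calves, and 5 of 10 fell. Fibroblast markers summed to 686 to 1590 CPM in steers and 1840 to 5350 CPM in calves, and 3 of 10 fell. Endothelial markers summed to 273 to 323 CPM in steers and 353 to 804 CPM in calves, and 3 of 10 fell. Leukocyte markers summed to 36.3 to 114 CPM in steers and 51.3 to 105 CPM in calves, with 6 of 8 tested higher and 1 lower. The part of these shifts in the loss of IGF2BP1, IGF2BP2, IGF2BP3, PLAG1 and TERT was not tested.

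Proliferation markers, which could move with TERT and HMGA1, summed to 153 to 257 CPM in steers and 62.5 to 455 CPM in calves. None of 10 was called by edgeR, where 16.9% of all tested genes were called, and 0 passed an unadjusted p under 0.05. With the mean of these markers as a covariate, and likewise with that of the smooth muscle markers, the same count of 5 members was called, all lower. No other marker list was used as a covariate. The part of cell division or cell mixture in these falls was not tested.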

How the data were processed

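RNA from rumen tissue of 4 steers and 4 calves was sequenced with a kit that marks strand, per the labels' protocols. The submitters' processing notes name Trimmomatic 0.39, STAR 2.7.11a, featureCounts 2.0.2 and DESeq2 1.42.0. The deposited values are whole-number read counts per gene, made by the authors with featureCounts per the file header, with no strand option. Counts cover whole gene spans, both mates add to a count, and reads in more than 1 gene or place are dropped, so sense and antisense reads cannot be told apart. The deposited length of each gene is the counted span in bases.

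All 16326 genes that passed filterByExpr were fitted with edgeR 4.0.16 (R 4.3.3): TMM scaling, robust quasi-likelihood F test, Benjamini-Hochberg adjustment, threshold 0.05. Errors are SE for log2 changes (steer minus calf) and SD for CPM. LIN28B had a two-sided exact permutation test on log2(CPM + 0.1). The fit was tested on simulated data. The 8 genes and all lists were chosen with earlier results of these data known. The text names the 8 genes, the called members of each of the 5 lists (at most the 4 highest and the 4 lowest), the most abundant gene of a list with no call, and the 3 closest profiles of each called gene, leaving out symbols that start with LOC. A gene of the let-7 list that the rule names is not reported here. Alternatives were other scalings, filters and tools (DESeq2 1.42.0, limma 3.58.1), halved counts, covariates, a replicate block and left-out libraries. No library repeated another. Intervals on 2 sums of counts, and the limit of 3 read pairs for a 0, cover counting error only.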

Additional observations from a re-analysis of the deposited data

Results flagged for a closer look

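In 10 of 80 groups of 4 libraries, 1 library lay far from the other 3 by Dixon's test at the 95% level. Chance does this in about 1 of 20 groups of independent, normally distributed values. That rate is no yardstick here. Where the other 3 libraries are at 0, any count gives a flag, and some genes were picked for a like profile. Among the 8 genes, TERT in steer 1 was at 13.6 CPM, where the other steers had 5.18 to 5.68 CPM. IGF2BP3 in steer 2 was at 0.0557 CPM, where the other steers had 0.275 to 0.316 CPM. IGF2BP1 in steer 3 and LIN28B in steer 3 were each at 0.0745 CPM, from 4 counts, where the other steers had 0.

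Among the genes near them in profile, CELF3 in steer 3 was at 0.149 CPM, where the other steers had 0. HOXD9 in steer 3 was at 1.30 CPM, against 0.300 to 0.456 CPM in the other steers. KLHDC7A in steer 4 was at 0.0351 CPM, where the other steers had 0.

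In the lists, THRSP in calf 4 was at 15.1 CPM, where the other calves had 2.02 to 3.81 CPM. DLK1 in calf 2 was at 125 CPM, where the other calves had 19.4 to 33.5 CPM. YBX1 in calf 3 was at 875 CPM, where the other calves had 753 to 758 CPM.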

How the results depend on the processing

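The loss of IGF2BP2, IGF2BP3, PLAG1 and TERT in steers kept its direction and its call under all 20 alternatives, with log2 changes of -2.43 to -1.67 for IGF2BP2 and -3.06 to -2.56 for PLAG1. IGF2BP1 was too low to be tested with a filter of 1 CPM or with counts halved, and 4 members were called there. HMGA1 reversed to 0.04 with the smooth muscle covariate (adjusted p = 0.943). Replicate numbers did not pair the animals: same-numbered steers and calves correlated at 0.199, 0.0826, -0.0953 and -0.266 in their deviations from the group means. With the replicate block, 1831 genes and 4 members were called, and IGF2BP1 was at -5.16 (adjusted p = 0.0558). Over all genes, 1734 (without calf 1) to 3257 (without steer 4) were called with 1 library left out, and 4080 by DESeq2. IGF2BP partners gave 2 calls by DESeq2 and 1 by limma-voom, and chromatin genes 5 by each. Telomere genes gave 0 calls with limma-voom, no filter, the replicate block, the proliferation covariate, and without calf 2 and steer 4 together, and 0 to 1 with 1 library left out. Of the comparisons for single genes, 726 kept their direction and side of the threshold, 45 lost a call, 2 gained one and 1 reversed. The cause of these moves was not tested. Leaving out calf 2 and steer 4 together was chosen after seeing the data. Depth limits LIN28B, IGF2BP1 and HMGA2, which had at most 62 counts in any library.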

Other observations

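Some libraries held the highest or lowest value for several of these genes. Steer 3 held all steer counts of IGF2BP1, LIN28B and CELF3, and the highest steer levels of HMGA2 (0.782 CPM), MEG3 (23.2 CPM), DLK1 (0.373 CPM) and DNMT3A (50.9 CPM). Calf 2 had the highest calf levels of IGF2BP2 (53.8 CPM), H19 (1950 CPM), MEG3 (893 CPM) and DLK1 (125 CPM). Calf 3 had the lowest calf levels of IGF2BP1 (0.210 CPM), IGF2BP2 (32.5 CPM), TERT (49.4 CPM), H19 (476 CPM) and MEG3 (278 CPM). These were picked after the values were seen, and no test was made on them.

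Near the members, GPNMB, a membrane glycoprotein gene 40483 bases from IGF2BP3, was called higher in steers (3.49 ± 0.83, adjusted p = 0.0189), opposite in direction to IGF2BP3. LOC100126544, 120 bases from HMGA1, was also called higher (0.90 ± 0.26, adjusted p = 0.0434). GRM4, 59197 bases from HMGA1, was called lower (-3.75 ± 1.02, adjusted p = 0.0323). It had 6 counts in steers and 88 in calves, and entered the test through the calves alone. B4GALNT2, a glycosyltransferase gene 36862 bases from IGF2BP1, was at 0.0373 to 14.35 CPM in steers and 39.0 to 134 CPM in calves and did not pass (-4.12 ± 1.30, adjusted p = 0.0565).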
